A study of Mus musculus with 12 samples.

Results

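Lipid uptake and droplet genes were followed through 12 arrays of mouse lymphoma cells. The 10 genes were chosen by name, as the receptor, the lipase and its inhibitor, the carrier, the droplet proteins, the 3 nuclear receptors and the import enzyme of fatty acid handling. Which measured values entered that choice is not recorded. Cd36, Angptl4 and Hsd17b13 are taken here as chosen on their values in these arrays, so that their levels and changes are a description and carry no test. Their confidence intervals do not allow for that choice and are not read as tests. The other genes are taken as relatives in the pathway, but they too were chosen with earlier results of these arrays known, and their p-values are to be read with that. Of the 10 genes, 9 have a probe set of their own on the array, out of 30098 genes with such a probe set. For Ppard only a probe set shared with 1810013A23Rik exists in the annotation used.

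The study asked which genes depend on Runx1, a DNA-binding transcription factor of blood cells, in lymphomas driven by Myc. RNA was measured from 3 cultures in each of 4 groups. Cells of the 3s line carry Mx1Cre, Rx1fl/fl (floxed Runx1 alleles) and EµMyc, come from p53+/- mice, and were measured after IFNβ and after vehicle. Cells of the 30s line carry the same Mx1Cre and EµMyc with Rx1WT/WT in place of the floxed alleles. They too come from p53+/- mice, and were measured after the same treatments. The paper describes the 3s line as p53 null, and most of its established lines as without the wild-type p53 allele. IFNβ was given at 50 U/ml for 72 h and vehicle was PBS with BSA. All cultures were then grown for 6 days more, so the arrays do not show the first hours of the interferon response. The Mx1 promoter drives Cre in cells that sense interferon, and Eµ drives Myc in B lineage cells. The lines are cultures from the spleen of C57BL6/CBA mice, 1 line per genotype. Replicates are therefore cultures of 1 line, and a difference between 3s and 30s cells cannot be told apart from a difference between 2 tumours. In the labels the genotype goes with IFNβ or vehicle rather than with the line, against the sample names, from which the groups were taken. Among the members, Cd36 was lower after IFNβ in 30s cells, Angptl4 and Hsd17b13 were higher after IFNβ in 3s cells, Cpt1a changed in 30s cells, and Lpl, Ppara and Pparg lay near the background in all 4 groups.

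Fatty acids reach cells as free acids bound to albumin or are cut from lipoproteins by lipases at the vessel wall. CD36 is a membrane receptor that takes up long-chain fatty acids and oxidised lipoproteins, and fatty acid binding proteins carry the acids inside the cell. Surplus is stored as triglyceride in lipid droplets, whose coat of perilipins and enzymes governs release, while CPT1 admits fatty acids to mitochondria for oxidation. The PPAR nuclear receptors sense fatty acids and, as partners of RXR, bind repeats of the half-site AGGTCA beside many of these genes. In B cells CD36 is known from marginal zone cells.

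The promoters of Cd36, Hsd17b13, Plin2 and Cpt1a, members whose arrays stood apart between groups, are shown because they hold that half-site. The sequences are those of RefSeq on GRCm38.p6, written 5′ to 3′ on the gene's strand, from 250 bases before the start to 50 after it. Capitals mark AGGTCA or its reverse complement TGACCT. They lie at chr5:17835847-17836146 (minus strand), chr5:103977339-103977638 (minus strand), chr4:86670010-86670309 (minus strand) and chr19:3323051-3323350 (plus strand), and the windows of Cd36 and Cpt1a start inside the RefSeq spans of their genes.
Cd36: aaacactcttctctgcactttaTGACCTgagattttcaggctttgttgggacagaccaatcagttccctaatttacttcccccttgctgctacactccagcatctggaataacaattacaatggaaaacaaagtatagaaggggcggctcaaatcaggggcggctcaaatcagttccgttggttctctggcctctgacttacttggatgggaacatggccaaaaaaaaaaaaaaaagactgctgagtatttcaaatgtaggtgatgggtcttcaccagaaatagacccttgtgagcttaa
Hsd17b13: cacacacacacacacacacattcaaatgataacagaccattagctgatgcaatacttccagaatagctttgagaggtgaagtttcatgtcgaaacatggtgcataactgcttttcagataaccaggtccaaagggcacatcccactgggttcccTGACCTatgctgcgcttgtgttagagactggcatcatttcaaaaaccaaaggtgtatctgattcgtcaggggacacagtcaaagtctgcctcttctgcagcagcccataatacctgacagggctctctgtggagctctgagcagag
Plin2: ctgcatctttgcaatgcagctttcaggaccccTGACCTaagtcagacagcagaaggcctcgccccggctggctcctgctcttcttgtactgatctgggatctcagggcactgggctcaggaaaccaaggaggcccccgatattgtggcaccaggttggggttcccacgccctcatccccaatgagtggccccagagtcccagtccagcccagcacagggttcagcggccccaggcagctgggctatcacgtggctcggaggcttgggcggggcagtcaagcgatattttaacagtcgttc
Cpt1a: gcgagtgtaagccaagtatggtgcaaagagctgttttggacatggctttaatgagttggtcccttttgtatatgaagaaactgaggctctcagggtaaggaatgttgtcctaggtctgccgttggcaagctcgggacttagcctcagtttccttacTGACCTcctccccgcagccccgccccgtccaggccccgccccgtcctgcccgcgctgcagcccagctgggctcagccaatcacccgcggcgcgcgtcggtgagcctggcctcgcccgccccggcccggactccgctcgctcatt
The half-site begins 228 bases before the start in Cd36, 96 in Hsd17b13, 218 in Plin2 and 94 in Cpt1a. In the 4 windows it stands as TGACCT. Of 10 members 7 matched the promoter table, with 9 windows. The half-site is in 6 of the 9 windows on either strand, which belong to 5 members, Pparg being the fifth with 2 windows. Of all 32851 promoter windows of the same length 16.3% hold it. The repeat AGGTCANAGGTCA, which contains the half-site, was searched on both strands and is in 0 of the members' windows and in 0.0396% of all windows. The Runx core TGTGGT, again on both strands, is in 0 members' windows and in 16.8% of all. A match or its lack describes these letters in this window. Angptl4, Lpl and Fabp5 were not matched.

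Values are log2 values after RMA, which corrects background, equalises the distributions of arrays and summarises the probes of a gene, and a difference of 1 is a 2-fold change. A change is called where limma's moderated test over all 30098 genes gave an adjusted p under 0.05. The number of arrays limits the precision. Array medians lay between 5.28 and 5.35 and arrays correlated at 0.99 or more. Runx1, the floxed gene, averaged 7.88 ± 0.18 after IFNβ against 7.90 ± 0.11 with vehicle in 3s cells, and 8.32 ± 0.11 after IFNβ against 8.24 ± 0.12 with vehicle in 30s cells (SD, n = 3 each). The groups of each line overlapped, with log2 changes of -0.02 in 3s and 0.08 in 30s cells (adjusted p = 0.992 and 0.821, limma). No source used here says whether its probes lie in the floxed part, and the loss of Runx1 was therefore not checked by them. The paper reports a PCR for the deleted allele, which showed excision in its IFNβ-treated floxed lines. It describes excision of Runx1 in 3s cells after IFNβ and none in 30s cells. Of 11 B cell markers 9 lay above 8, among them Cd79a, Cd79b, Pax5 and Ebf1. Of the 11, 0 changed in 3s cells, Igll1 and Ms4a1 changed in 30s cells, Igll1 had a difference between the effects, and 9 differed between the vehicle groups. All 6 adipocyte markers measured and 5 of 6 of hepatocytes lay under 6, as did 7 of 9 of macrophages. The mean of the macrophage list ran between 5.78 and 5.83 in 3s cells after IFNβ and between 5.72 and 5.81 with vehicle, and between 5.66 and 5.73 in 30s cells after IFNβ and between 5.77 and 5.78 with vehicle. Its defining genes Adgre1 and Csf1r averaged 4.52 and 4.62, within the range of the 23 probe sets with no target in the genome (2.62 to 5.76). Cd68 and Mrc1 were the macrophage markers above 8, and Mrc1 passed for its 3s effect and for the difference of effects. Between the vehicle groups 3 of the 9 differed, Itgam, Cd68 and Mrc1. The part of other cells in the values below was not tested beyond this. Fewer expressing cells and less RNA per cell cannot be told apart in bulk RNA.

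Cd36, at chr5:17781690-17888959, was the most changeable member. In 3s cells it read 14.26, 14.24 and 14.32 after IFNβ, and 14.29, 14.23 and 14.15 with vehicle. In 30s cells it read 9.56, 9.77 and 10.07 after IFNβ, against 11.20, 11.27 and 11.11 with vehicle. The 3s groups overlapped at a high level, 30s vehicle stood apart below them, and 30s IFNβ was lowest with no overlap. The log2 change in 30s cells was -1.39 (SE 0.10, 95% confidence interval -1.62 to -1.17, n = 3 each), or 2.63-fold lower after IFNβ. In 3s cells the same change was 0.05 (interval -0.18 to 0.27). These intervals use a spread pooled over the 4 groups, where the SD was 0.25 in 30s IFNβ and 0.04 to 0.08 elsewhere. With only the 3s arrays fitted the SE in 3s cells was 0.05, against 0.10. With vehicle alone, 3s cells exceeded 30s cells by 3.03 (interval 2.81 to 3.25), or 8.16-fold. The IFNβ effect in 3s cells minus that in 30s cells was 1.44 (interval 1.13 to 1.76), which uses the same arrays as both effects. Among the markers, Ms4a1 (CD20) averaged 8.28 after IFNβ and 9.25 with vehicle in 30s cells, and 11.11 after IFNβ and 11.49 with vehicle in 3s cells. Igll1, a part of the pre-B cell receptor, ran the other way in 30s cells, at 10.70 after IFNβ and 9.78 with vehicle. Cd68 of macrophages averaged 8.99 after IFNβ and 9.33 with vehicle in 30s cells, with no call, and 9.80 and 9.79 in 3s cells. The part of these shifts in the Cd36 values was not tested.

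Lpl encodes lipoprotein lipase, the enzyme that frees fatty acids from lipoproteins. In 3s cells Lpl read 4.58, 4.60 and 4.61 after IFNβ, and 4.63, 4.58 and 4.66 with vehicle. In 30s cells Lpl read 4.66, 4.55 and 4.61 after IFNβ, and 4.58, 4.67 and 4.67 with vehicle. All groups overlapped, and the 12-array mean of 4.62 was above that of 20 of the 23 probe sets with no target, so this is a dim signal. Its log2 change was -0.03 in both lines (adjusted p = 0.961 in 3s and 0.832 in 30s cells, limma), with intervals of -0.12 to 0.07 and -0.13 to 0.06.

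Angptl4 encodes a secreted inhibitor of lipoprotein lipase that fasting, hypoxia and PPARs induce in other tissues. The 3s cultures read 6.67, 6.47 and 6.66 after IFNβ, against 6.12, 5.99 and 6.11 with vehicle. The 30s cultures read 6.34, 6.24 and 6.40 after IFNβ, and 6.39, 6.34 and 6.25 with vehicle. The IFNβ arrays of 3s cells were above all other arrays, the vehicle arrays of 3s cells were below all others, and the 30s groups overlapped between them. The log2 change was 0.52 in 3s cells (SE 0.07, interval 0.38 to 0.67, 1.44-fold) and 0.00 in 30s cells (interval -0.15 to 0.15). The difference between these effects was 0.52 (interval 0.32 to 0.73), and with vehicle 3s cells lay 0.25 below 30s cells (interval -0.40 to -0.10).

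Fabp5 encodes an intracellular fatty acid carrier. In 3s cells it read 11.70, 11.52 and 11.69 after IFNβ, and 11.51, 11.48 and 11.65 with vehicle. In 30s cells it read 11.92, 11.91 and 11.86 after IFNβ, and 11.82, 11.84 and 11.73 with vehicle. The 3s groups overlapped and the 30s IFNβ arrays stood just above the 30s vehicle arrays. Neither effect passed the test, with log2 changes of 0.09 (interval -0.05 to 0.23, adjusted p = 0.826) in 3s cells and 0.10 (interval -0.04 to 0.24, adjusted p = 0.568) in 30s cells (limma). With vehicle Fabp5 was lower in 3s than in 30s cells, at a log2 difference of -0.25 (SE 0.06, adjusted p = 0.0106, limma), a call lost with the methods' t-test (adjusted p = 0.0793, range over alternatives 0.00529 to 0.0793). It lies on chromosome 3, where the median of this change over the 310 genes with a mean above 8 was -0.43, against 0.08 over all 5817 such genes. The part of the chromosome in the call was not tested.

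**Figure D1:**
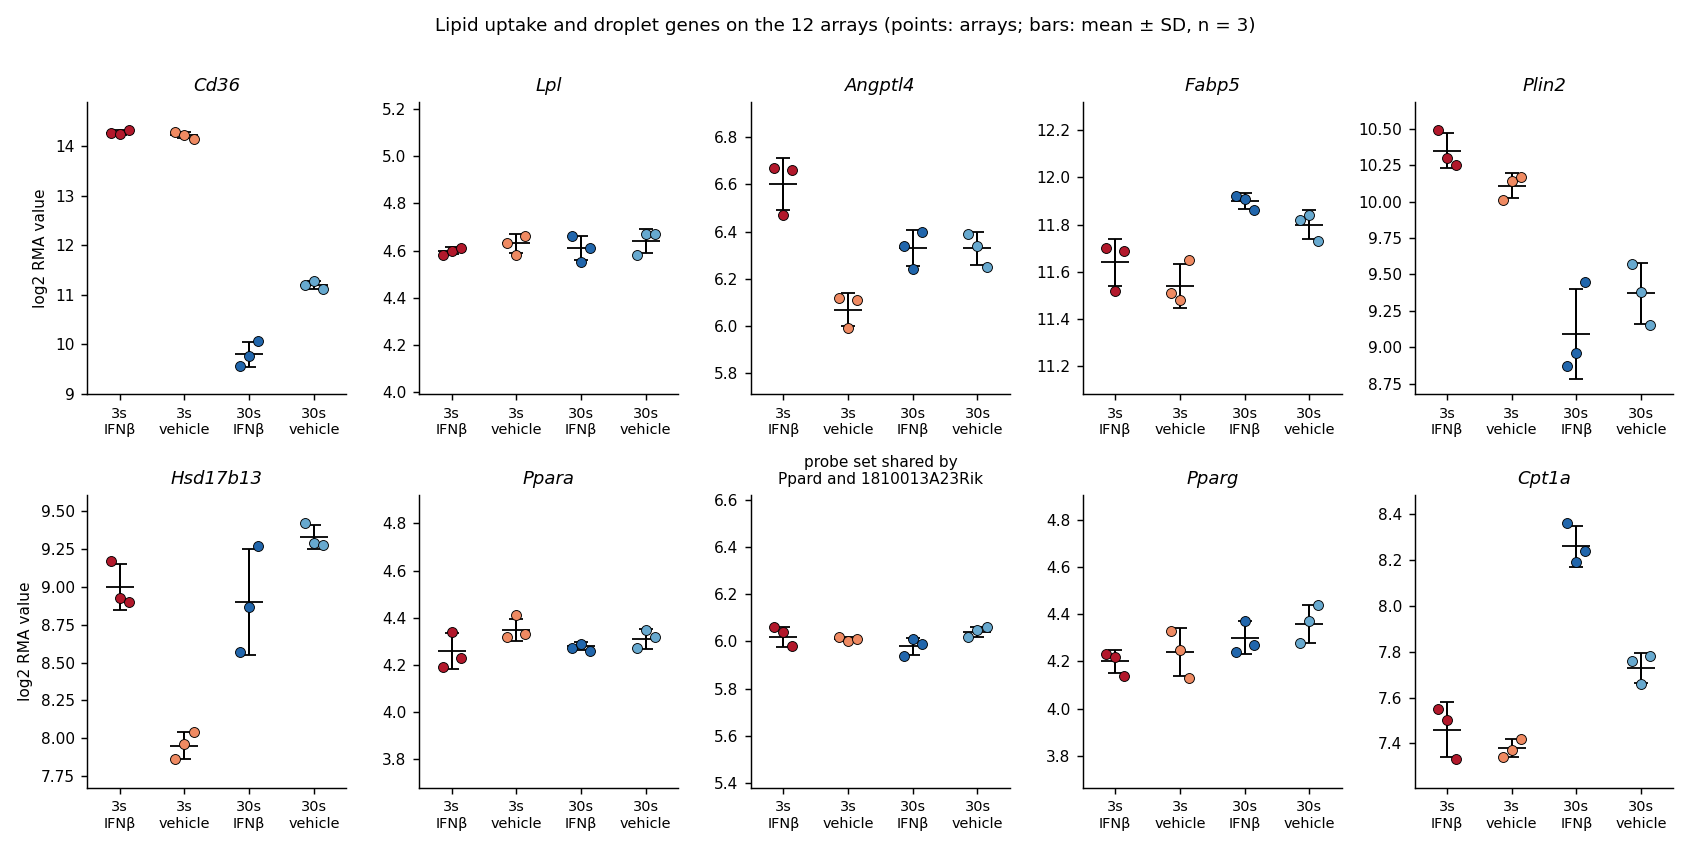
Log2 RMA value (y axis, its own range in each panel) of each member on the 12 arrays by line and treatment (x axis), with 1 point per array and bars for mean ± SD of 3 arrays. Cd36 separated the lines and was lowest in 30s cells after IFNβ (9.56 to 10.07), and Hsd17b13 was lowest in 3s cells with vehicle (7.86 to 8.04).

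Plin2 encodes perilipin 2, the droplet coat protein of most cells that are not adipocytes. Plin2 in 3s cells read 10.49, 10.30 and 10.25 after IFNβ, and 10.01, 10.14 and 10.17 with vehicle. Plin2 in 30s cells read 8.87, 8.96 and 9.45 after IFNβ, and 9.57, 9.38 and 9.15 with vehicle. In 3s cells the IFNβ arrays stood just above the vehicle arrays, and in 30s cells the groups overlapped. The log2 changes of 0.24 in 3s cells (interval -0.07 to 0.55, adjusted p = 0.778) and -0.27 in 30s cells (interval -0.59 to 0.04, adjusted p = 0.459) did not pass limma's test. Their difference was 0.51 (interval 0.07 to 0.96, adjusted p = 0.354). With vehicle Plin2 was higher in 3s than in 30s cells by 0.74 (SE 0.14, 1.67-fold, adjusted p = 0.0022, limma), and this call held under the alternatives run, with adjusted p between 2.94e-04 and 0.0353.

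Hsd17b13 encodes an enzyme of the hydroxysteroid dehydrogenase family that sits on lipid droplets and is best known from hepatocytes. In 3s cells it read 9.17, 8.93 and 8.90 after IFNβ, against 7.86, 7.96 and 8.04 with vehicle. In 30s cells it read 8.57, 8.87 and 9.27 after IFNβ, against 9.42, 9.29 and 9.28 with vehicle. In 3s cells all IFNβ arrays were above the vehicle arrays, and in 30s cells all were below them, the nearest pair being 9.27 against 9.28. The log2 change was 1.05 in 3s cells (SE 0.14, interval 0.74 to 1.36, 2.07-fold) and -0.43 in 30s cells (interval -0.74 to -0.11). Both intervals use a spread pooled over the 4 groups. The SDs were 0.15 after IFNβ and 0.09 with vehicle in 3s cells, and 0.35 and 0.08 in 30s cells. The 30s interval thus rests in part on the quieter groups. Without IFNβ replicate 1 the 30s value was -0.26 and without IFNβ replicate 3 it was -0.61. The difference between the effects was 1.48 (interval 1.03 to 1.92), and with vehicle the log2 difference of 3s from 30s cells was -1.38 (2.60-fold lower, interval -1.69 to -1.06). After IFNβ the 3s arrays (8.90 to 9.17) lay inside the range of the 30s arrays (8.57 to 9.27). In the hepatocyte list that goes with the known site of this gene, Alb, Apoa1, Ttr, Fgb and Ahsg averaged under 6, and Apoa2 averaged 6.71 after IFNβ and 6.44 with vehicle in 3s cells and 6.79 and 6.48 in 30s cells, with no call. Its part in the Hsd17b13 values was not tested.

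Among the 30s IFNβ cultures Cd36, Hsd17b13 and Plin2 had SDs of 0.25, 0.35 and 0.31, where the median SD of all genes within a group was 0.069 to 0.071. Each of the 3 read lowest in replicate 1 and highest in replicate 3, so their changes in 30s cells are not separate observations. The cause was not tested. Angptl4, Cpt1a and Fabp5 had SDs of 0.077, 0.09 and 0.03 in the same cultures.

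The nuclear receptors were dim. Ppara, the receptor that drives oxidation genes in liver, read 4.19, 4.34 and 4.23 in 3s cells after IFNβ, and 4.32, 4.41 and 4.33 with vehicle. In 30s cells Ppara read 4.27, 4.29 and 4.26 after IFNβ, and 4.27, 4.35 and 4.32 with vehicle. Ppara groups overlapped in both lines, and its log2 changes of -0.10 and -0.04 did not pass (adjusted p = 0.67 in 3s and 0.826 in 30s cells, limma). Pparg, the receptor of adipocyte formation, read 4.23, 4.22 and 4.14 in 3s cells after IFNβ, and 4.33, 4.25 and 4.13 with vehicle. In 30s cells Pparg read 4.24, 4.37 and 4.27 after IFNβ, and 4.28, 4.37 and 4.44 with vehicle. Pparg overlapped too, with log2 changes of -0.04 and -0.07 (adjusted p = 0.961 in 3s and 0.724 in 30s cells, limma). Both probe sets averaged above 19 of the 23 with no target, so whether the transcripts are present at all is not settled by these arrays. The probe set that Ppard shares with 1810013A23Rik ran from 5.94 to 6.06 over the 12 arrays, and cannot be given to either gene.

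Cpt1a, at chr19:3322326-3385735, encodes the carnitine palmitoyltransferase of the outer mitochondrial membrane, which sets the rate of fatty acid entry. Cpt1a in 3s cells read 7.55, 7.50 and 7.33 after IFNβ, and 7.34, 7.37 and 7.42 with vehicle. Cpt1a in 30s cells read 8.36, 8.19 and 8.24 after IFNβ, against 7.76, 7.66 and 7.78 with vehicle. The 3s groups overlapped at the low end, 30s vehicle stood above both, and 30s IFNβ stood above that. Cpt1a rose in 30s cells by 0.53 (SE 0.07, 1.44-fold, adjusted p = 0.00456, limma). That call was lost when only the 30s arrays were fitted (adjusted p = 0.0503) and with the methods' t-test (adjusted p = 0.183), over a range of 0.00304 to 0.183. In 3s cells its log2 change was 0.08 (interval -0.06 to 0.23, adjusted p = 0.877). The effect in 3s minus that in 30s cells was -0.45 (SE 0.09, adjusted p = 0.0496, limma), a call lost without any 1 of 11 of the 12 arrays (value between -0.49 and -0.38) and under 5 of 9 other settings, with adjusted p between 0.0331 and 0.133. It held without 3s IFNβ replicate 1.

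With vehicle Cpt1a was lower in 3s than in 30s cells, at a log2 change of -0.36 (SE 0.07, adjusted p = 0.00161, limma). Over the 182 genes of chromosome 19 with a mean above 8 the median of this change was -0.37, against 0.08 over all such genes. Their median IFNβ effect was 0.04 in 3s and 0.18 in 30s cells, against 0.005 and 0.05 over all such genes. The Cpt1a difference between lines was thus close to the median of its chromosome, while its IFNβ effect in 30s cells was above that median. The part of the chromosome in either call was not tested.

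Counted over the members open to a test, 0 of 6 changed in 3s cells by limma, with 0 at an unadjusted p under 0.05 and 0 by the methods' t-test. Of all genes 1.02% changed there, 0.581% higher and 0.439% lower, and 2424 of 30098 had an unadjusted p under 0.05 (limma). In 30s cells 1 of 6 changed, Cpt1a, against 1.15% of all genes, 0.651% higher and 0.498% lower. The difference between the effects passed for 1 of 6, Cpt1a again, which shares these arrays, against 1.02% of all genes, 0.595% above 0 and 0.425% below. Between the vehicle groups 3 of 6 differed, Plin2 higher and Cpt1a and Fabp5 lower in 3s cells, against 24.9% of all genes, 14.3% higher and 10.6% lower. The median log2 change over the 9 members was 0.08 in 3s and -0.04 in 30s cells, and that over all genes -0.002 and 0.007. Over all genes 346 calls were made in 30s cells, but 0 when only the 30s arrays were fitted (3799 at an unadjusted p under 0.05), and after cyclic loess the split of 196 higher and 150 lower calls became 101 higher and 119 lower.

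**Figure D2:**
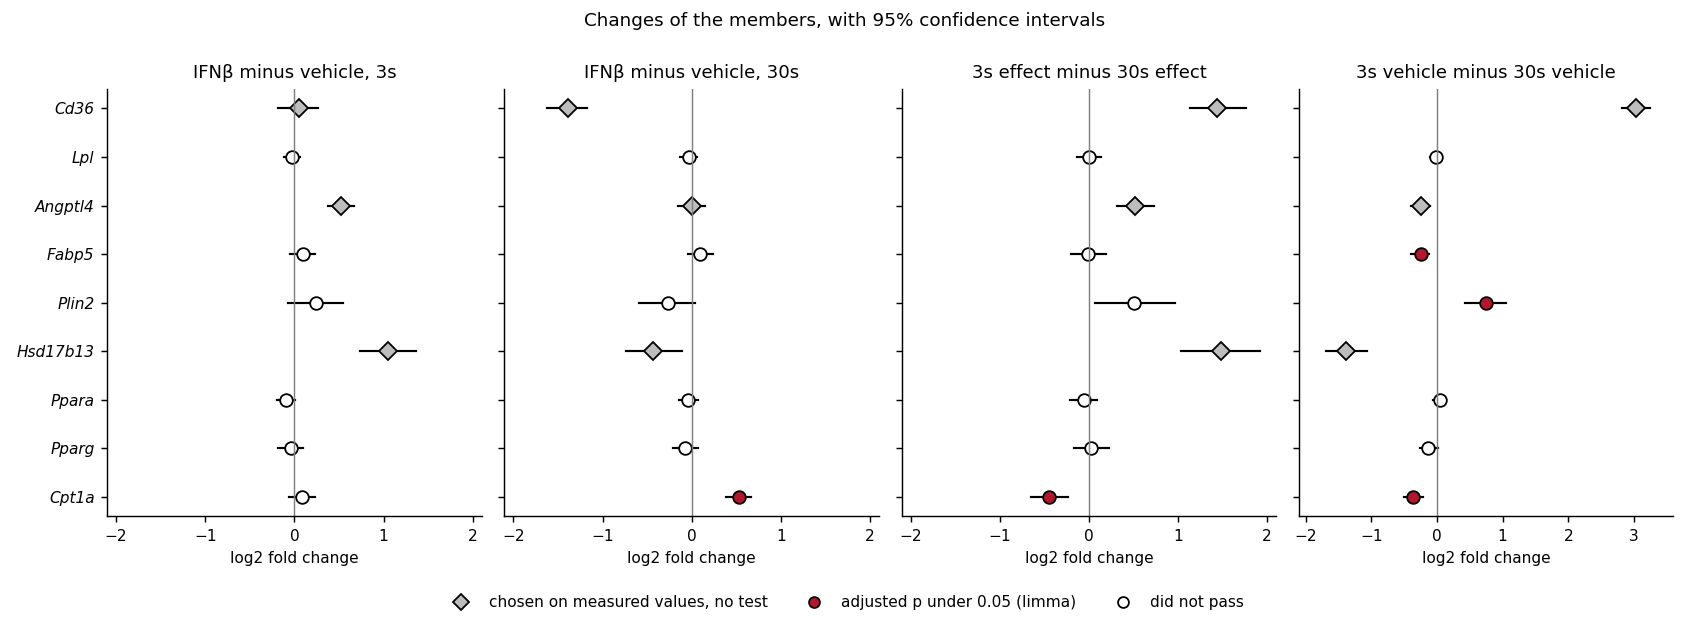
Log2 fold change (x axis) of the 9 members with a probe set of their own (y axis) in 4 comparisons, with lines for 95% confidence intervals from limma. Grey diamonds mark the members chosen on their values, which have no test and whose intervals do not allow for that choice. Filled circles mark adjusted p under 0.05, reached by Cpt1a in 30s cells and in the difference, and by Plin2, Fabp5 and Cpt1a between the vehicle groups.

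The neighbours of the members on the chromosome were read from the RefSeq order of protein-coding genes, up to 5 on each side. Those of Cd36, Angptl4, Hsd17b13 and Cpt1a are described. Beside other members, Acer2 by Plin2 passed in 30s cells (0.53, adjusted p = 0.00861) and in the difference (-0.64, adjusted p = 0.0173, limma). Zbtb10 by Fabp5 passed in 3s cells (0.40, adjusted p = 0.0284, limma). Between the vehicle groups 7 of 10 neighbours of Fabp5 passed, against 24.9% of all genes. Of the 10 neighbours of Cd36, 0 passed in 3s cells, in 30s cells or in the difference by limma. Of all genes 1.02%, 1.15% and 1.02% passed, so nothing is read from these counts. The nearest on one side, Gnat3, a G protein subunit of taste cells, had a log2 change of -0.50 in 30s cells (adjusted p = 0.0587) and was higher in 3s than in 30s vehicle cells by 0.88 (adjusted p = 8.78e-05), the directions of Cd36. Between the vehicle groups 3 of the 10 passed, against 24.9% of all genes, and the others were lower in 3s cells, Phtf2 at -0.45 (adjusted p = 3.67e-05) and Speer4f2 at -0.16 (adjusted p = 0.0448, limma). Sema3c on the other side had 0.02 and 0.005 in these comparisons (adjusted p = 0.931 and 0.959). Of the 10 neighbours of Angptl4, 0 passed in either line, against 1.02% and 1.15% of all genes, and nothing is read from that. Between the vehicle groups 5 of these 10 passed, against 24.9% of all genes. Of the 10 neighbours of Hsd17b13, 1 passed in 3s cells and 3 between the vehicle groups, against 1.02% and 24.9% of all genes. In 3s cells this was Aff1, a subunit of the super elongation complex, which rose by 0.30 (adjusted p = 0.0253, limma). Hsd17b11, a related droplet enzyme and the next gene to Hsd17b13, had a log2 change of 0.09 in 3s cells (adjusted p = 0.837) and was higher in 3s than in 30s vehicle cells by 0.90 (adjusted p = 1.45e-06), where the difference of Hsd17b13 was -1.38. Of the 7 neighbours of Cpt1a, 3 passed between the vehicle groups, against 24.9% of all genes. Mrpl21, Ppp6r3 and Kmt5b were lower in 3s than in 30s vehicle cells, at log2 differences of -0.53, -0.50 and -0.45, where Cpt1a had -0.36. The neighbours that did not pass ran from -0.10 (Ighmbp2) to 0.05 (Tesmin). In 30s cells the IFNβ effects of Mrpl21, Ppp6r3 and Kmt5b were 0.15, 0.15 and 0.10 with no call.

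**Figure D3:**
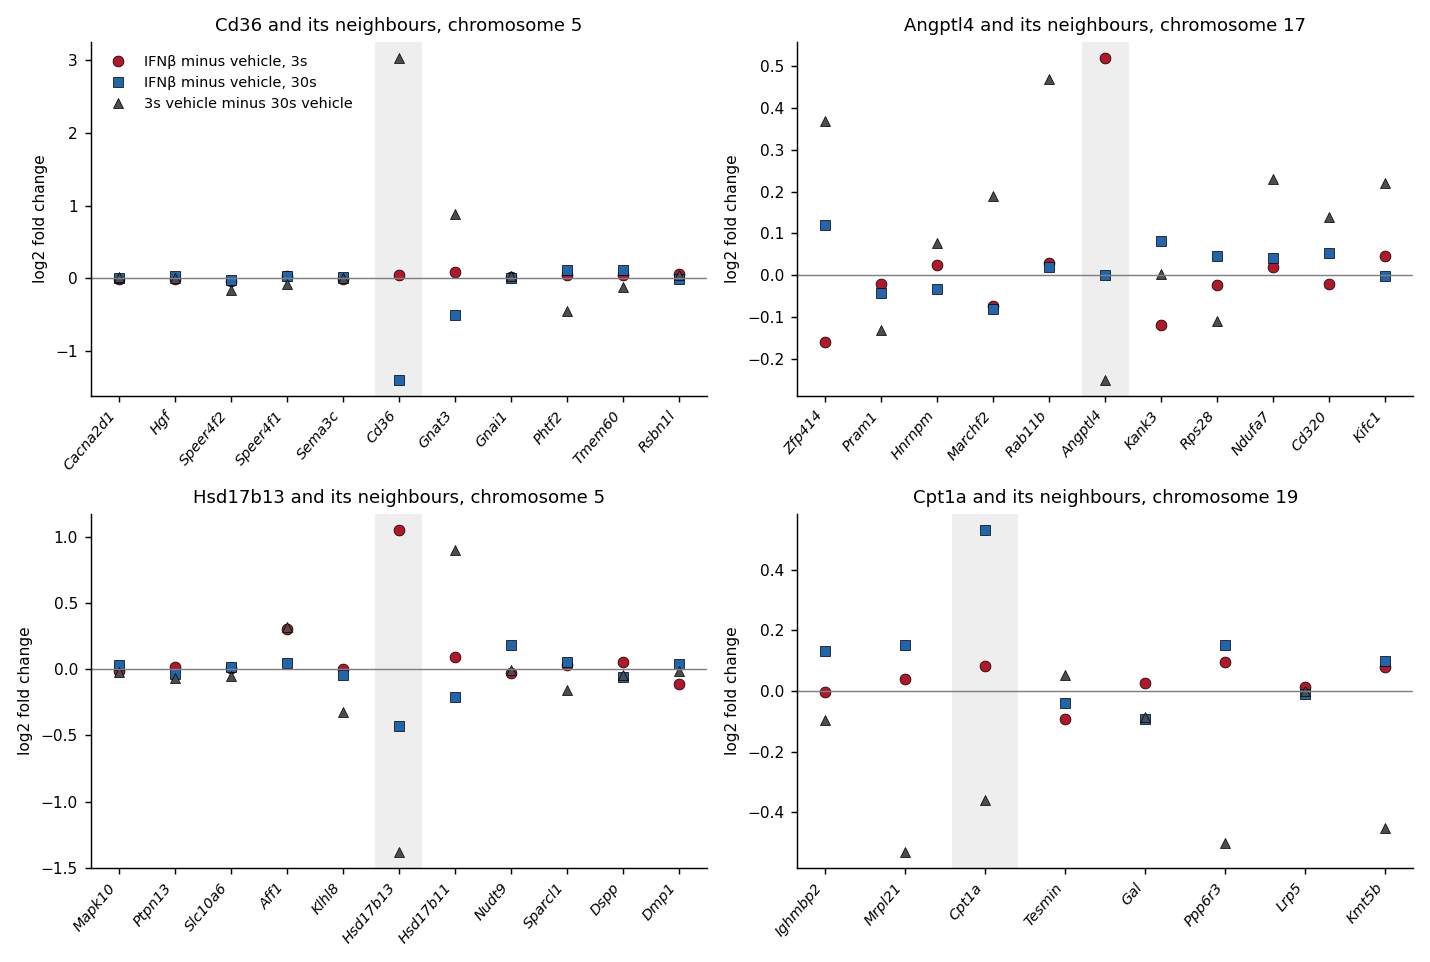
Log2 fold change (y axis) of Cd36, Angptl4, Hsd17b13 and Cpt1a (grey band) and of the measured protein-coding genes beside them in chromosome order (x axis), in 3 comparisons. Gnat3 lay in the directions of Cd36, at -0.50 (adjusted p = 0.0587, not past the test) and 0.88, and Hsd17b11 was at 0.90 between the vehicle groups where Hsd17b13 was at -1.38.

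The wider pathway was followed in 7 lists. Of 28 measured genes of fatty acid and lipoprotein uptake, 2 changed in 3s cells, 1 in 30s cells and 8 between the vehicle groups, 6 higher and 2 lower in 3s cells. These are 7.14%, 3.57% and 28.6% of the list, against 1.02%, 1.15% and 24.9% of all genes. Shares of all genes, here and below, count dim genes too and were not matched to the lists for brightness. The list's median log2 changes were -0.009, 0.002 and -0.015, and those of all genes -0.002, 0.007 and -0.014. Acsl4, which activates arachidonate and other long fatty acids, read 11.71, 11.65 and 11.65 in 3s cells after IFNβ, against 11.45, 11.35 and 11.36 with vehicle. It rose by 0.28 (adjusted p = 0.00551), and did not in 30s cells (-0.05, adjusted p = 0.665), a difference of 0.33 (adjusted p = 0.0188, limma) that lost its call without any 1 of 5 arrays (0.31 to 0.36). Lipg, endothelial lipase, was dim and rose by 0.28 in 3s cells (adjusted p = 0.0127), a call lost without 3s IFNβ replicate 1 or without 3s vehicle replicate 1 or 2, with values between 0.25 and 0.31. Scarb2, a lysosomal relative of CD36, rose in 30s cells by 0.37 (adjusted p = 0.0364), a call lost without any 1 of 9 arrays (values between 0.31 and 0.42). Lmf1, which matures lipoprotein lipase, was 0.63 higher in 3s than in 30s vehicle cells (adjusted p = 5.73e-06).

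Of 31 measured genes of droplet proteins, droplet lipases and triglyceride synthesis, 1 changed in each line and 11 differed between the vehicle groups, 7 higher and 4 lower in 3s cells. The shares were 3.23%, 3.23% and 35.5%, against 1.02%, 1.15% and 24.9% of all genes, and the list's median log2 changes were 0.02, 0.05 and -0.003, against -0.002, 0.007 and -0.014. Gpat3, which starts glycerolipid synthesis, read 7.04, 6.96 and 6.96 in 3s cells after IFNβ, against 7.36, 7.43 and 7.42 with vehicle. In 30s cells Gpat3 read 8.16, 8.16 and 8.01 after IFNβ, against 7.94, 7.76 and 7.96 with vehicle. It fell in 3s cells by 0.42 on the log2 scale (adjusted p = 0.0069), had a change of 0.22 in 30s cells (adjusted p = 0.114), and the 3s effect minus the 30s effect came to -0.64 (adjusted p = 0.00573, limma). With the mean over its probe sets these values were -0.24 and -0.31 for 3s cells and the difference, and the calls were lost (adjusted p = 0.115 and 0.138), as they were with the replicate block (adjusted p = 0.079 and 0.062). Over the alternatives the adjusted p ran from 0.00372 to 0.116 in 3s cells and from 0.00375 to 0.138 for the difference. Bscl2, seipin of droplet assembly, rose in 30s cells by 0.35 (adjusted p = 0.00826), and lies on chromosome 19 like Cpt1a. Gpam, the mitochondrial partner of Gpat3 in the same reaction, was lower in 3s than in 30s vehicle cells (-1.14), and Lipe, hormone-sensitive lipase, and Abhd5, a lipase activator, were higher (0.53 and 0.63). After IFNβ in 3s cells Gpam had a log2 change of 0.36, opposite in sign to Gpat3. It did not pass (adjusted p = 0.0605, limma), but did under 4 of 22 alternatives. In 30s cells its change was 0.11 (adjusted p = 0.64, limma).

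Of 23 measured genes of mitochondrial and peroxisomal fatty acid oxidation, 0 changed in 3s cells and 2 rose in 30s cells. The shares of all genes were 1.02% and 1.15%. At an unadjusted p under 0.05 (limma) were 2 of the 23 in 3s and 9 in 30s cells. The unadjusted counts over all 30098 genes were 2424 in 3s and 4066 in 30s cells. The list's median log2 changes were 0.04 in 3s and 0.08 in 30s cells, and those of all genes -0.002 and 0.007. Hadh, a mitochondrial dehydrogenase of the cycle, read 12.70, 12.57 and 12.66 in 30s cells after IFNβ, against 12.23, 12.28 and 12.36 with vehicle. It rose by 0.35 (adjusted p = 0.0105), with a difference between the effects of -0.40 (adjusted p = 0.0306, limma). The first call was lost without 30s IFNβ replicate 1 and the second without any 1 of 8 arrays, with values between 0.32 and 0.39 and between -0.44 and -0.37. Etfdh, which passes electrons from that cycle to ubiquinone, rose in 30s cells by 0.22 (adjusted p = 0.0416), a call lost without any 1 of 11 arrays (0.19 to 0.24). Both lie on chromosome 3, where the median IFNβ effect in 30s cells over genes with a mean above 8 was 0.14. With vehicle 14 of the 23 differed between the lines, 9 higher and 5 lower in 3s cells, or 60.9% against 24.9% of all genes (14.3% higher and 10.6% lower). The share of all genes also counts dim ones. With genes of a mean under 5 left out, 7496 calls were made among fewer genes, against 7489 in the main fit. The 24.9% is therefore not matched to the brightness of the list, and an excess in the list was not tested. The list's median was 0.03, and that of all genes -0.014. Higher in 3s cells were Eci2 at 1.26, Acaa2 at 0.93 and Acadl at 0.78. The Cpt1a, Scarb2, Bscl2, Hadh and Etfdh calls in 30s cells were all lost when only the 30s arrays were fitted.

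Of 25 measured PPAR target genes 0 changed in either line by limma (3 in each at an unadjusted p under 0.05), and of 15 partners and co-regulators 0 changed (1 in 3s and 3 in 30s cells at an unadjusted p under 0.05). With 1.02% and 1.15% of all genes called, 0 of 25 and 0 of 15 are near the background, and nothing is read from them. The unadjusted counts stand against 2424 of all 30098 genes in 3s cells and 4066 in 30s cells. Nothing is read from those counts either. With vehicle 5 of 25 targets were higher in 3s cells and 0 lower, which is 20.0% against 24.9% of all genes. Acaa2 and Acadl, listed also under oxidation, led them, and Fabp4, a carrier of adipocytes, was at 0.32 (call lost without 3s vehicle replicate 1 or 30s vehicle replicate 2, at 0.29 to 0.34). Of the 15 partners 9 differed, 7 higher and 2 lower in 3s cells, or 60.0% against 24.9% of all genes (14.3% higher and 10.6% lower), with a median of 0.08 against -0.014. The share of all genes is again not matched to the list for brightness, and an excess was not tested. Nrip1, a corepressor of nuclear receptors, was 1.75 higher (3.36-fold, adjusted p = 3.00e-09), and Rxrb, a partner of the PPARs, 0.38 higher (adjusted p = 1.35e-04, limma).

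Of 21 measured genes of fatty acid and cholesterol synthesis 1 changed in 3s cells and 0 in 30s cells (3 at an unadjusted p under 0.05), against 1.02% and 1.15% of all genes, with list medians of -0.02 and -0.01. Elovl6, which lengthens palmitate to stearate, read 13.78, 13.86 and 13.81 in 3s cells after IFNβ, against 13.47, 13.44 and 13.42 with vehicle. In 30s cells Elovl6 read 12.55, 12.49 and 12.58 after IFNβ, and 12.57, 12.55 and 12.61 with vehicle. It rose in 3s cells by 0.37 (adjusted p = 0.00103), and by 0.41 more than in 30s cells (adjusted p = 0.00805, limma), the second call being lost with the replicate block (adjusted p = 0.0605, range over alternatives 0.00372 to 0.0605). Between the vehicle groups 13 of 21 differed, 4 higher and 9 lower in 3s cells, or 61.9% against 24.9% of all genes (14.3% higher and 10.6% lower), and the list's median was -0.06 against -0.014. Among them were Fdps at -1.48, Fads2 at -1.22, Me1 at -1.13 and Elovl6 at 0.87. Here too the share of all genes is not matched to the list for brightness, and an excess was not tested. Of 7 genes of cholesterol efflux 1 changed in 3s cells, Npc2, a lysosomal cholesterol carrier, at 0.31 (adjusted p = 0.0104), a call lost without 3s IFNβ replicate 3 or 3s vehicle replicate 1 (0.27 to 0.34). In 30s cells 0 of the 7 changed (3 at an unadjusted p under 0.05). This unadjusted count and that of the synthesis list stand against 4066 of all 30098 genes in 30s cells (limma). With only the 3s arrays fitted the 3s calls of Acsl4, Lipg and Npc2 were lost, and with the methods' t-test those of Gpat3 and Elovl6 as well.

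**Figure D4:**
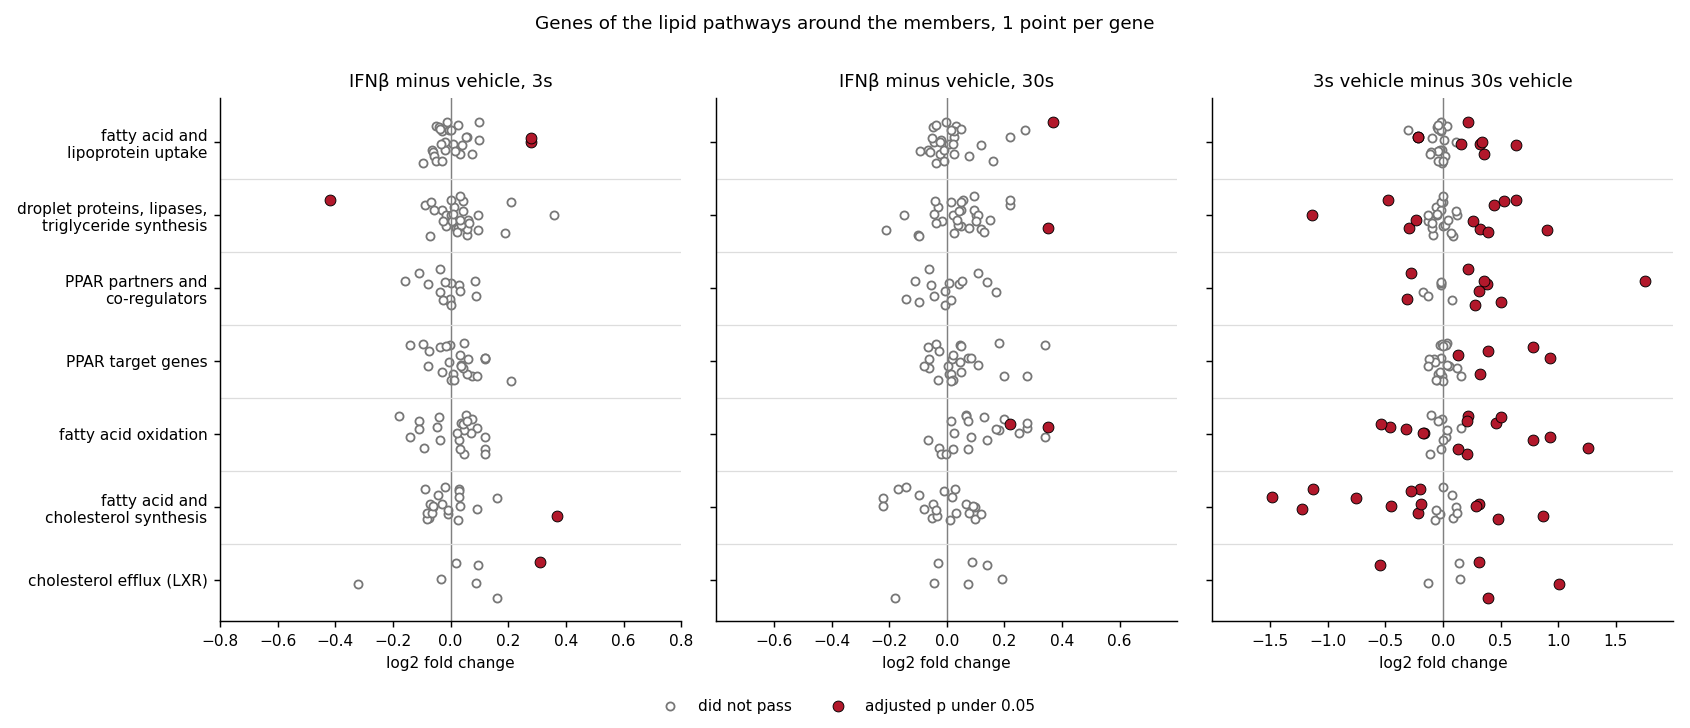
Log2 fold change (x axis, wider in the last panel) of each measured gene of the 7 pathway lists (y axis, spread vertically for sight), in 3 comparisons, with filled points for adjusted p under 0.05. After IFNβ at most 2 genes of a list passed in either line. Between the vehicle groups 5 of 25 PPAR targets (20.0%) and 14 of 23 oxidation genes (60.9%) did, against 24.9% of all genes, dim ones included.

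Genes with patterns like those of the 3 members chosen on their values were found by the root mean square difference of centred log2 values over the 12 arrays, among 19752 named genes. Nearest to Cd36 were an immunoglobulin kappa variable segment (0.186), Tfpi, an inhibitor of coagulation (0.259), and Maoa, a monoamine oxidase (0.318), where Cd36 itself had an SD of 1.94 over the arrays. Tfpi averaged 11.26 in 3s cells after IFNβ and 11.37 with vehicle, and 6.80 in 30s cells after IFNβ and 7.72 with vehicle. Nearest to Angptl4 were Vegfa, a vascular growth factor (0.0826), Ptgr1, a prostaglandin reductase (0.0844), and Irf4, a B cell transcription factor (0.0849), with an SD of Angptl4 of 0.198. Vegfa averaged 8.28 in 3s cells after IFNβ and 7.86 with vehicle, and 8.07 in 30s cells after IFNβ and 8.04 with vehicle. Nearest to Hsd17b13, with an SD of 0.538, were Pik3r3 (0.256), Kmo (0.266) and Serinc5 (0.298). In 3s cells Pik3r3 averaged 9.32 after IFNβ and 8.34 with vehicle, Kmo 8.31 and 7.87, and Serinc5 11.38 and 10.55. In 30s cells Pik3r3 averaged 9.61 after IFNβ and 9.52 with vehicle, Kmo 8.64 and 9.10, and Serinc5 11.06 and 11.20. Pik3r3 thus was not lower after IFNβ in 30s cells, where Hsd17b13 averaged 8.90 and 9.33. Likeness here is a description of 12 arrays that share lines and treatments.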

How the data were processed

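The authors hybridised RNA of 12 cultures to Affymetrix MTA 1.0 arrays and deposited log2 values made by RMA, which were used as deposited. Affymetrix Expression Console 1.4 is the software in the submitters' processing notes, whereas Partek Genomics Suite is given in the paper's methods. For the array annotation a genome build was not given in the sources used here. Positions and neighbours of genes were taken from RefSeq (GRCm38.p6).

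Of 72688 probe sets, 30638 carried 1 gene symbol (330 symbols were updated), 2176 several, 33142 none, and 6732 were controls. The brightest probe set per gene was kept. Tests were made with limma 3.58.1 (R 4.3.3) on 4 group means (8 residual degrees of freedom, prior 3.15), two-sided, with the Benjamini-Hochberg adjustment over 30098 genes and a threshold of 0.05. The model was checked on simulated arrays with known changes. The members and lists were chosen with earlier results of these data known. Named are all members, up to 4 genes per list and comparison with the smallest adjusted p among those called, and 3 genes like each chosen member. Neighbours and genes named for a direction beside a member were picked after their values were seen. As alternatives each array was left out, only the arrays compared were fitted, replicate numbers entered as a block, the moderation was robust with a trend, and arrays were weighted. The methods' t-test was also run. Values were centred on medians, quantile normalised or passed through cyclic loess, genes with a mean under 5 were left out, and probe sets of a gene were averaged. No 2 arrays had identical values. List genes with no probe set of 1 symbol are not analysed here. P-values of the main fit measure the spread between cultures within a group, pooled over the 4 groups of both lines and moderated over genes. With 1 line per genotype they do not measure a spread between tumours.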

Additional observations from a re-analysis of the deposited data

Results flagged for a closer look

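Hsd17b13 moved in opposite directions in the lines, above vehicle in every 3s IFNβ culture and below it in every 30s IFNβ culture, with 1.48 on the log2 scale between the effects. In 30s cells the nearest pair was 9.27 after IFNβ against 9.28 with vehicle, and without 1 array the change ran from -0.61 to -0.26. The difference of 1.48 was not tested, because the gene was chosen on its values. The IFNβ effect differed between the lines by limma's test of the difference itself for 6 further genes of the lists or members. It was smaller in 3s than in 30s cells for Cpt1a (-0.45), Hadh (-0.40) and Gpat3 (-0.64), and larger for Elovl6 (0.41), Acsl4 (0.33) and Lipg (0.32, a call lost without any 1 of 10 arrays, at 0.29 to 0.35), all as log2 values of 3s minus 30s. The call was lost without any 1 of 11 arrays for Cpt1a (-0.49 to -0.38), 8 for Hadh (-0.44 to -0.37) and 5 for Acsl4 (0.31 to 0.36), and held without each array in turn for Elovl6 and Gpat3. With the mean over its probe sets Gpat3 came to -0.31 and lost its call, and with the replicate block all 6 calls were lost, at adjusted p between 0.0605 and 0.167. Gpat3 had effects of opposite sign in the lines, at -0.42 in 3s and 0.22 in 30s cells, of which the first passed the test.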

How the results depend on the processing

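Direction and call of Plin2 between the vehicle groups (0.63 to 0.84) and of Cpt1a there (-0.39 to -0.32) held under every alternative run. Members past the test in 30s cells numbered 1, and 0 with only the arrays compared and with the methods' t-test. For the difference they numbered 1, and 0 with the replicate block, trend and robust moderation, the methods' t-test, quantile normalisation and cyclic loess, and 0 to 1 when an array was left out. Over all genes the count in 3s cells was 307, but 154 with only the arrays compared, 172 with the replicate block, 8 with the methods' t-test and 190 to 299 without 1 array. In 30s cells it was 346, but 0 with only the arrays compared, 95 (24 higher, 71 lower) with the replicate block, 1 with the methods' t-test, 192 after quantile normalisation, 220 after cyclic loess, 554 with dim genes left out, which tests fewer genes, and 97 to 354 without 1 array. The lowest of these was without 30s IFNβ replicate 1. The difference had 307, but 132 with the replicate block, 178 with the methods' t-test and 184 to 241 without 1 array. Between the vehicle groups there were 7489, 4944 with the methods' t-test and 6373 to 7435 without 1 array. The cause of these moves was not tested. The difference needs all 12 arrays, so only the arrays compared was not run for it. Lpl, Ppara and Pparg are absent from the setting without dim genes.

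Deviations of same-numbered cultures from their group means correlated at -0.10, 0.13 and 0.06 in 3s and at -0.002, 0.04 and -0.07 in 30s cells. Pairs with unlike numbers ran from -0.21 to 0.15 in 3s and from -0.09 to 0.09 in 30s cells. With 3 arrays a group these values cannot show whether the cultures were paired. The pairing was left out of the main values and entered as the replicate block. With the replicate block Cpt1a kept its call in 30s cells (adjusted p = 0.0342), and lost that of the difference (adjusted p = 0.133). Calls of Gpat3 and Lipg (3s cells and difference), Npc2 (3s cells), Hadh (30s cells and difference), Bscl2, Etfdh and Scarb2 (30s cells), Acsl4 and Elovl6 (difference), and Acaa1a and Scarb2 (between the vehicle groups) were lost with it too, at adjusted p between 0.0605 and 0.167. For the dim Lpl, Ppara and Pparg the signal lies within the range of probe sets with no target, which limits what a change can show.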
